A study of Mus musculus with 12 samples.

Results

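The melanocortin pathway genes described here are 10 genes taken by symbol from a table of 32494 genes: Pomc, Agrp, Cartpt, Mc3r, Mc4r, Mrap2, Pcsk1, Pcsk2, Bdnf and Ntrk2. All 10 were found, and 9 of them, all but Agrp, reached the mean of 1 CPM that was required for a test across genes. CPM are counts scaled by the authors to a library size that was close to, but not equal to, the total reads recovered for each library. The libraries came from the hypothalamus of 12 male mice. Every mouse carried floxed Smc3 and had received tamoxifen, and tissue was collected 5 weeks later. The labels do not say whether both alleles were floxed, and an age of 8 weeks is given without the step it refers to. Mice that lacked the Camk2a-cre/ERT2 transgene form the group labelled WT (n = 7), and mice that carried it form the group labelled cKO (n = 5). The Camk2a promoter drives the tamoxifen-dependent recombinase in forebrain excitatory neurons, so the tissue also holds many cells that the transgene does not reach.

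The melanocortin system is a hypothalamic circuit that restrains food intake. Neurons of the arcuate nucleus cut the precursor encoded by Pomc into melanocortin peptides, which activate the receptors encoded by Mc3r and Mc4r, while neighbouring neurons release the antagonist encoded by Agrp. The receptor Mc4r acts largely in the paraventricular nucleus, a region specified by the transcription factor Sim1, and the neurotrophin Bdnf with its receptor Ntrk2 acts further along the same route to satiety. The title of the study names Mc4r beside Smc3, a subunit of the cohesin ring, and body weight.

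Checks of the labels preceded the results. Smc3 was higher, not lower, under the label cKO. Its level was 76.8 to 85.7 CPM under the label WT and 116 to 144 CPM under the label cKO. By limma the log2 fold change was 0.67 (adjusted p-value 3.06e-05, SE 0.05). The authors' deposited table gives it the same direction (log2 fold change 0.68, false discovery rate 9.42e-24). Counts over a whole gene and all cells of the tissue cannot show whether the floxed part was lost. They therefore do not settle the labels. Titles in both groups carry the word control, so every direction here refers to libraries by their labels. Markers of the labelled tissue were uneven. Among genes of arcuate neurons, Npy was at 4.14 to 7.03 CPM and Agrp at 0.522 to 1.24 CPM, and the 8 arcuate genes summed to 25.3 to 56.3 CPM in WT and 44.1 to 59.7 CPM in cKO. The ventromedial gene Nr5a1 was at 0 in WT 4 and reached 8.77 CPM in WT 6, whereas the thalamic gene Tcf7l2 was at 114 to 307 CPM. The libraries further fell into classes by the oxytocin gene Oxt, a product of magnocellular neurons. Oxt was at 0.280 to 2.33 CPM in WT 4, WT 5, cKO 12 and cKO 13 and at 69.5 to 348 CPM in the other 8. WT 11 stood apart in other genes, with Hcrt at 0.372 CPM, Pmch at 1.03 CPM and the arcuate gene Bsx at 0.330 CPM. In every other library these were at least at 10.4, 14.4 and 4.04 CPM. The hypothalamic genes Oxt (348 CPM) and Gal (32.2 CPM) were highest in WT 11, as was the sum of 6 thalamic genes (757 CPM). The depth was 17126005 to 24010001 reads in 11 libraries and 68744112 reads in WT 1.

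Mc4r was lower in the libraries labelled cKO and was the single tested member past the threshold. By limma, 1 of the 9 tested members was past an adjusted p-value of 0.05, in the downward direction. Over all 15359 tested genes 14.1% were past that threshold, 6.54% higher and 7.6% lower, so the share among the members was near the background. With limma's arrayWeights, which give each library a weight by its fit, 4 members were past it against 33.4% of all tested genes, and with the mean log2 level of 6 thalamic genes as a covariate (the thalamic score) 0 against 6.44%. Without the 4 libraries with low Oxt it was 1 member, Bdnf, against 10.3%. The groups overlapped in every member, while 6.73% of all tested genes had groups that did not overlap. The median log2 fold change of the 9 members was -0.15, against 0.01 over all tested genes.

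**Figure D1:**
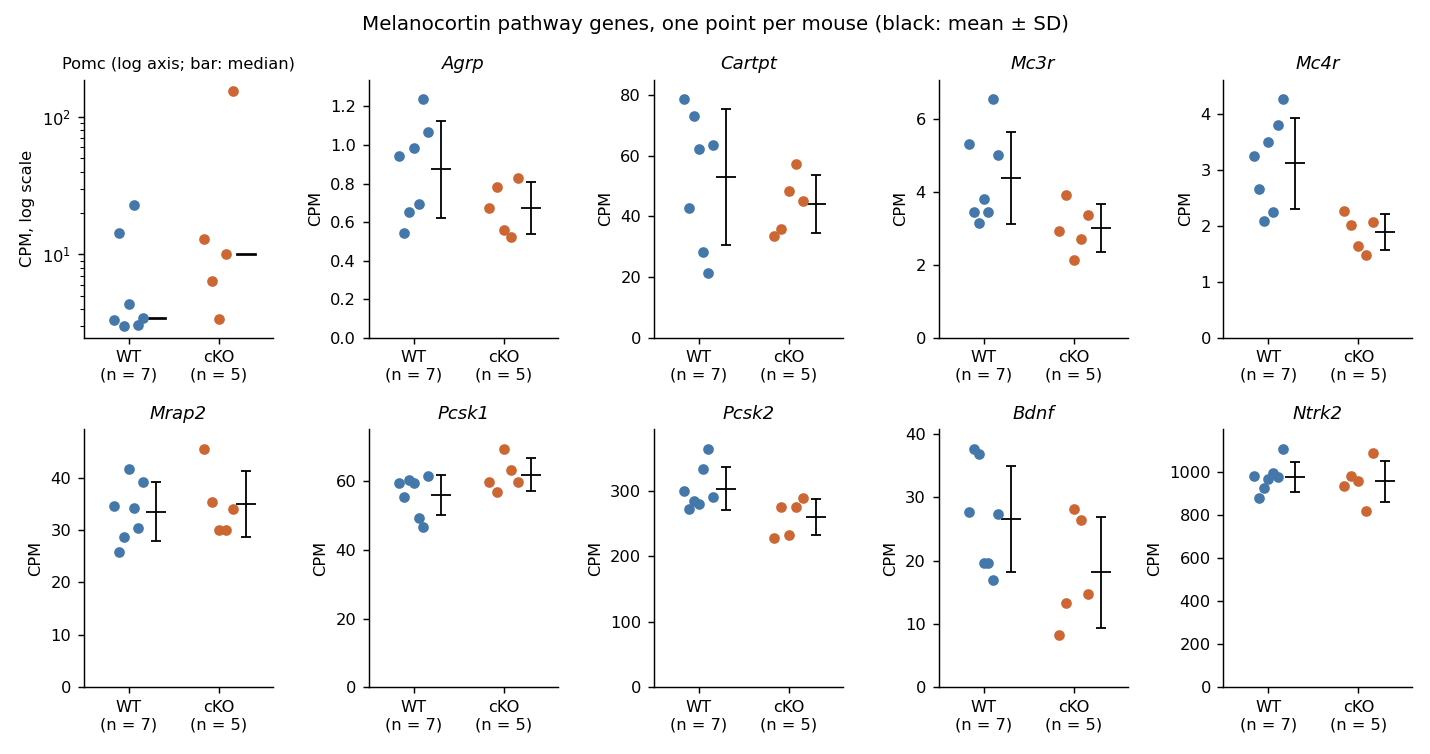
Level in CPM of each of the 10 genes, with each point a mouse of the group labelled WT (blue, n = 7) or cKO (orange, n = 5). Black marks give the mean and SD, except for Pomc, which is on a log axis with the median as a bar. All 5 cKO points of Mc4r lie below the WT median of 3.24 CPM, and the Pomc point at 153 CPM is cKO 14.

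The ligand precursor Pomc varied more between mice than any other member, with an SD of 100.3% of the mean in WT and 174% in cKO. In the libraries labelled WT it was at 3.34 CPM in WT 1, 14.2 in WT 4, 3.02 in WT 5, 4.39 in WT 6, 22.9 in WT 7, 3.10 in WT 11 and 3.47 in WT 15. In those labelled cKO it was at 13.01 CPM in cKO 8, 6.42 in cKO 9, 3.41 in cKO 12, 10.02 in cKO 13 and 153 in cKO 14. A single library, cKO 14, therefore stood far above all others, and each group held libraries both near 3 CPM and above 6 CPM. Mean and SD were 7.79 ± 7.81 CPM over the 7 WT mice and 37.1 ± 64.6 CPM over the 5 cKO mice, a ratio of 4.76. The difference did not pass the test, with a log2 difference by limma of 1.16 (adjusted p-value 0.311, SE 0.75) and a two-sided exact permutation p-value of 0.188 over every division of the mice into 7 and 5. Without cKO 14 the ratio was 1.05 (exact permutation p-value 0.918), so the size of the difference rested on that library. By limma the log2 difference was 0.32 without cKO 14 (adjusted p-value 0.721), 2.21 with the thalamic score and 1.99 without the low Oxt libraries, and edgeR gave 2.25. Over 12 alternatives that kept cKO 14 the adjusted p-value was 0.0858 to 0.447.

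Pomc is also made in the pituitary, by corticotrophs and melanotrophs, and genes of that gland were set beside it. The growth hormone gene Gh was at 2.03 to 10.2 CPM in the 6 libraries in which Pomc exceeded 5 CPM, and at 0.140 to 1.26 CPM in the 6 in which it did not. The library with the highest Pomc, cKO 14, also had the highest Gh (10.2 CPM) and the highest prolactin transcript Prl (1.72 CPM). Prl was at 0.260 to 1.72 CPM in the first 6 libraries and at 0 to 0.233 CPM in the others. The ranges of Tshb and Lhb overlapped. Tshb, of thyrotrophs, was at 1.13 to 2.42 CPM in the first 6 and at 1.39 to 2.47 CPM in the others, and Lhb, of gonadotrophs, at 0.665 to 2.27 CPM and at 1.49 to 2.31 CPM. The ranges of the pituitary gene Cga did not overlap, at 0.0950 to 0.296 CPM and at 0.0413 to 0.0933 CPM, but rested on few reads. Over the list of 9 pituitary genes the summed level was 4.21 to 6.90 CPM in the group labelled WT and 5.04 to 16.2 CPM in that labelled cKO. The pituitary transcription factor Pou1f1 stayed at 0 to 0.124 CPM in every library, and Tbx19, the corticotroph factor, at 0 to 0.888 CPM. Tbx19 and Cga were both highest in cKO 14. The part of pituitary RNA in the Pomc values was not tested.

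**Figure D2:**
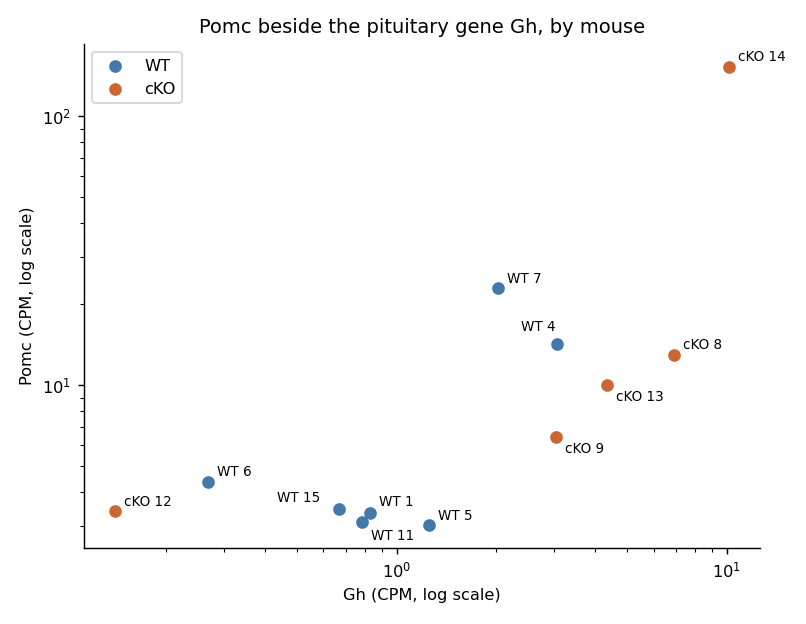
Pomc against the pituitary gene Gh, both in CPM on log axes, with each point a mouse labelled by group and number. The 6 libraries with Pomc above 5 CPM are those with Gh at 2.03 CPM or more, and cKO 14 is highest in both.

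Agrp, the antagonist of the melanocortin receptors, was the least abundant member. It rested on 11 to 65 reads per library. Its WT values were 0.945 CPM in WT 1, 0.542 in WT 4, 0.651 in WT 5, 0.985 in WT 6, 0.692 in WT 7, 1.24 in WT 11 and 1.07 in WT 15. Its cKO values were 0.671 CPM in cKO 8, 0.784 in cKO 9, 0.560 in cKO 12, 0.522 in cKO 13 and 0.829 in cKO 14. All 5 cKO values were below the WT median of 0.945 CPM, and 4 WT values were above every cKO value. The group means ± SD were 0.875 ± 0.252 CPM over the 7 WT mice and 0.673 ± 0.134 CPM over the 5 cKO mice, with an exact permutation p-value of 0.133. The SD within cKO was 0.740 times the SD that counting alone would give, so no difference between single cKO mice was detectable at this depth. In GENCODE M21, 114 of the 1013 merged exon bases of Agrp are shared with the insulator gene Ctcf on the opposite strand, and 114 with the noncoding gene Gm5914 on the same strand. The strand setting of the counting is not given in the sources used here, and strand would not separate Agrp from Gm5914. Any of its few reads that lie in the shared bases are therefore uncertain.

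Cartpt encodes the CART peptide, which is released by many Pomc neurons but also by other hypothalamic cells. Its WT values were 78.7 CPM in WT 1, 42.9 in WT 4, 73.2 in WT 5, 62.3 in WT 6, 28.3 in WT 7, 21.3 in WT 11 and 63.5 in WT 15. Its cKO values were 33.7 CPM in cKO 8, 35.9 in cKO 9, 48.5 in cKO 12, 57.2 in cKO 13 and 45.1 in cKO 14. The cKO values lay inside the WT range. Mean and SD were 52.9 ± 22.3 CPM over the 7 WT mice and 44.1 ± 9.58 CPM over the 5 cKO mice, with a log2 difference by limma of -0.15 (adjusted p-value 0.766, SE 0.29, 95% interval -0.78 to 0.48). It was -0.66 with the thalamic score (limma adjusted p-value 0.171) and -0.75 with arrayWeights (limma adjusted p-value 0.0578), and over 13 alternatives the adjusted p-value was 0.0578 to 0.812. With a mouse left out in turn the log2 difference ran from -0.34 without WT 11 to -0.034 without WT 1. Cartpt did not follow Pomc: the WT library with the most Pomc, WT 7, had the lowest Cartpt but for WT 11 of its group, and cKO 14 was in the middle of its group. WT 11 was also lowest in Hcrt (0.372 CPM) and Pmch (1.03 CPM), which were at 19.4 and 62.9 CPM in WT 7. A link of Cartpt to these genes was not tested.

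Melanocortin receptors signal through cyclic AMP, whose response element has the letters TGACGTCA. RefSeq promoter windows of GRCm38.p6, from 250 bases before to 50 bases after a gene start, matched 8 of the 10 members with 14 windows; Mc4r and Agrp had no match. The letters TGACGTCA, which read the same on both strands, occurred in 2 of the 14 windows, those of Cartpt and Pcsk1, and in 1.79% of all 32851 windows of that length. Of the 14, 7 belong to Bdnf. They began 112 bases before the start in Cartpt and 78 bases before it in Pcsk1. The Pomc window held the letters TATAAA, searched on both strands, 25 bases before the start, as did 13.6% of all windows in any position. These windows are shown because Pomc was the most variable member and because Cartpt and Pcsk1 hold the cyclic AMP element; they lie at chr12:3954695-3954994 on the plus strand for Pomc, chr13:99900634-99900933 on the minus strand for Cartpt and chr13:75089607-75089906 on the plus strand for Pcsk1. Each is written 5′ to 3′ with the matched letters in capitals. A match describes the sequence and shows no binding.
Pomc: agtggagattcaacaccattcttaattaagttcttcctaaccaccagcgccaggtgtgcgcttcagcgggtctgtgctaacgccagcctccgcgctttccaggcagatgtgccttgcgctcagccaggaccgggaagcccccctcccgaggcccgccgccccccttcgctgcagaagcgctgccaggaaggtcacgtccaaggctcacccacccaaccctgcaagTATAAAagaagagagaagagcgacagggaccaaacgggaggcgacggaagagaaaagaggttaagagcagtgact
Cartpt: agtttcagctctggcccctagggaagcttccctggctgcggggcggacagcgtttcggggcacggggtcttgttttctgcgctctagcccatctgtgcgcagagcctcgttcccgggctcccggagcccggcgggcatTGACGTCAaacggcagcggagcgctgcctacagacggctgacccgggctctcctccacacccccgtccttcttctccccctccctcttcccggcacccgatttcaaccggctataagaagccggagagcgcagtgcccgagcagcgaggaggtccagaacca
Pcsk1: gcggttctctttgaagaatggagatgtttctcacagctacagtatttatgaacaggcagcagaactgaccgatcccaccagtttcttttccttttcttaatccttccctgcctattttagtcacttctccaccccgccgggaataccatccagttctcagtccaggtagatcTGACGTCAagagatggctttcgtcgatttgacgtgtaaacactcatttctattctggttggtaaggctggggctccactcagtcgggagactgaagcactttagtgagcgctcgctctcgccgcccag

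Mc4r, the receptor whose loss causes obesity, fell in the libraries labelled cKO. In the libraries labelled WT it was at 3.24 CPM in WT 1, 2.66 in WT 4, 2.09 in WT 5, 3.49 in WT 6, 2.25 in WT 7, 3.80 in WT 11 and 4.27 in WT 15. In those labelled cKO it was at 2.27 CPM in cKO 8, 2.01 in cKO 9, 1.63 in cKO 12, 1.47 in cKO 13 and 2.07 in cKO 14. The ranges overlapped only through WT 5 and WT 7, which lay below the highest cKO library, and 4 of 5 cKO values were below every WT value. The group means ± SD were 3.12 ± 0.813 CPM over the 7 WT mice and 1.89 ± 0.328 CPM over the 5 cKO mice, a ratio of 0.607. The pseudocount of 1 CPM in the log2 values understates fold changes of low genes such as this. The log2 difference by limma was -0.49 (adjusted p-value 0.0296, SE 0.14). By exact permutation the p-value was 0.0114. Without WT 1, WT 6, WT 11, cKO 9, cKO 12 or cKO 13, each left out in turn, the limma adjusted p-value was 0.0601, 0.0534, 0.0561, 0.0509, 0.0584 or 0.0699. In such bulk tissue, fewer cells that make a transcript and less of it per cell cannot be told apart.

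The fall of Mc4r was set beside Sim1, which marks the nucleus in which the receptor largely acts. Sim1 rose, from 14.9 ± 2.48 to 22.7 ± 4.89 CPM (mean ± SD over 7 and 5 mice), with a log2 difference by limma of 0.56 (adjusted p-value 0.0206, SE 0.14). It was the 1 of 7 paraventricular genes past the threshold. Of the other 6, Otp, Trh and Pou3f2 had log2 differences of 0.62, 0.53 and 0.12, and Crh, Oxt and Avp of -0.54, -0.60 and -0.56. The mean CPM of Avp was nevertheless higher in cKO (64.3 against 54.0), and with Oxt of at least 5 CPM it was at 93.9 to 125 CPM in cKO and 29.0 to 108 CPM in WT, so its direction differed with the scale. For each 100 CPM of Sim1 there were 13.3 to 27.7 CPM of Mc4r in the libraries labelled WT and 7.66 to 9.54 CPM in those labelled cKO. This ratio did not overlap between the groups, and since both of its genes were already known to differ it carries no test. Within the libraries with low Oxt, Mc4r was at 2.09 to 2.66 CPM in the 2 labelled WT and at 1.47 to 1.63 CPM in the 2 labelled cKO. Within the other libraries it was at 2.25 to 4.27 CPM in the 5 labelled WT and at 2.01 to 2.27 CPM in the 3 labelled cKO. A covariate for the Oxt class, added once the data had been seen, gave Mc4r a log2 difference of -0.45 by limma (adjusted p-value 0.0123, SE 0.11). The limma adjusted p-value was 0.0614 with the thalamic score, 0.0531 after quantile normalization, 0.0727 over all genes above 0 and 0.0602 without the low Oxt libraries. Over 12 alternatives other than leaving out a mouse in turn, its adjusted p-value was 0.00328 to 0.0727.

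Mc3r, the second melanocortin receptor of the brain, was lower on average in the libraries labelled cKO but was not past the threshold across genes. Its WT values were 5.34 CPM in WT 1, 3.45 in WT 4, 3.16 in WT 5, 3.80 in WT 6, 3.46 in WT 7, 6.57 in WT 11 and 5.03 in WT 15. Its cKO values were 2.94 CPM in cKO 8, 3.92 in cKO 9, 2.15 in cKO 12, 2.71 in cKO 13 and 3.37 in cKO 14. The 3 highest values were all WT and the 3 lowest all cKO. Mean and SD were 4.40 ± 1.27 CPM over the 7 WT mice and 3.02 ± 0.672 CPM over the 5 cKO mice, a ratio of 0.685, with a log2 difference by limma of -0.41 (adjusted p-value 0.0924, SE 0.16). The exact permutation p-value was 0.0492, unadjusted over the 10 members, and it was 0.0606 to 0.112 without WT 1, WT 6, WT 11, WT 15, cKO 8, cKO 12, cKO 13 or cKO 14. With the Oxt class as a covariate the limma adjusted p-value was 0.0487, in a range of 0.0172 to 0.350 over 12 alternatives. The level of Mc4r relative to Mc3r was 0.579 to 0.918 in WT and 0.513 to 0.771 in cKO, ranges that overlapped.

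Mrap2 encodes the accessory protein that binds melanocortin receptors and alters their signalling. It was at 25.7 to 41.6 CPM with a median of 34.3 CPM in the WT group. Its cKO values were 45.5 CPM in cKO 8, 35.2 in cKO 9, 30.1 in cKO 12, 30.1 in cKO 13 and 34.1 in cKO 14. The groups lay over each other apart from cKO 8, the highest of all. The log2 difference by limma was 0.06 (adjusted p-value 0.773, SE 0.12, 95% interval -0.20 to 0.33), and it was -0.03 without cKO 8.

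**Figure D3:**
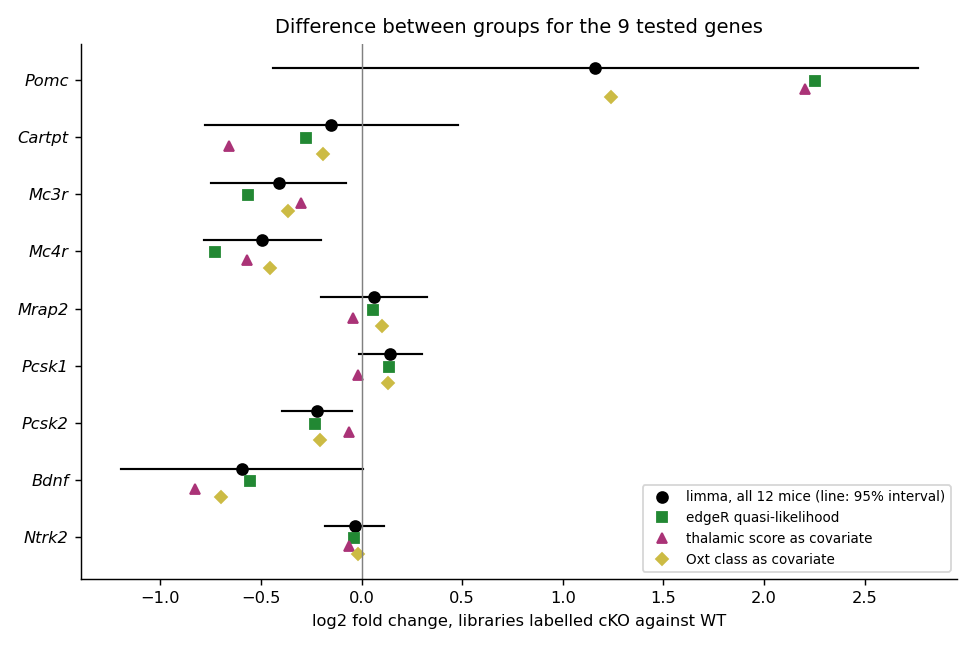
log2 fold change of the 9 tested genes between the libraries labelled cKO and WT, from limma on all 12 mice (black, with 95% intervals), from edgeR (squares), and with the thalamic score (triangles) or the Oxt class (diamonds) as covariate. Intervals of Mc4r, Mc3r and Pcsk2 lie below 0, and among the black points Mc4r alone was past the adjusted threshold.

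The convertases Pcsk1 and Pcsk2 cut the Pomc precursor in turn, the first to corticotropin and the second onward to the melanocyte-stimulating peptides. Pcsk1 was at 46.7 to 61.4 CPM with a median of 59.4 CPM in the libraries labelled WT. It was at 59.7 CPM in cKO 8, 56.9 in cKO 9, 69.5 in cKO 12, 63.1 in cKO 13 and 59.9 in cKO 14, of which 2 were above every WT value. Mean and SD were 56.0 ± 5.83 CPM over the 7 WT mice and 61.8 ± 4.82 CPM over the 5 cKO mice, with a log2 difference by limma of 0.14 (adjusted p-value 0.203, SE 0.07, 95% interval -0.02 to 0.30). With the score of thalamic genes as a covariate the limma log2 fold change was -0.02 (adjusted p-value 0.879, in a range of 0.139 to 0.879 over 13 alternatives).

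Pcsk2 was at 299 CPM in WT 1, 272 in WT 4, 285 in WT 5, 279 in WT 6, 333 in WT 7, 365 in WT 11 and 291 in WT 15. It was at 228 CPM in cKO 8, 276 in cKO 9, 233 in cKO 12, 276 in cKO 13 and 289 in cKO 14. All 5 cKO values were below the WT median of 291 CPM. In GENCODE M21, Pcsk2 shares 260 and 99 bases of exons with the antisense genes Pcsk2os1 and Pcsk2os2. The group means ± SD were 304 ± 33.5 CPM over the 7 WT mice and 260.3 ± 27.5 CPM over the 5 cKO mice, with a log2 difference by limma of -0.22 (adjusted p-value 0.0821, SE 0.08). The exact permutation p-value was 0.0391, unadjusted over the 10 members, and it was 0.0541 to 0.115 without WT 1, WT 7, WT 11, WT 15, cKO 8, cKO 9, cKO 12 or cKO 13. WT 7 and WT 11, highest in Pcsk2, were also highest in the thalamic genes Tcf7l2 (278 and 307 CPM) and Gbx2 (40.3 and 68.7 CPM). The same held for Lef1, Synpo2 and Ramp3. The thalamic gene Prkcd was instead highest in WT 4 and WT 5 (266 and 210 CPM), with 205 CPM in WT 7 and 197 in WT 11. The kinase gene Prkcd, the 1 of 6 thalamic genes past the threshold, fell from 169 ± 68.2 to 64.1 ± 37.5 CPM (mean ± SD over 7 and 5 mice), a log2 difference by limma of -1.44 (adjusted p-value 0.0177, SE 0.35). The other 5 had log2 differences from -0.69 to -0.14. The 6 thalamic genes summed to 353 to 757 CPM in the libraries labelled WT and to 229 to 451 CPM in those labelled cKO. With the thalamic score as a covariate the log2 fold change of Pcsk2 was -0.06 (limma adjusted p-value 0.619, in a range of 0.0345 to 0.619 over 13 alternatives).

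Bdnf, which encodes the neurotrophin that acts downstream of Mc4r, varied between the libraries of each group. In the libraries labelled WT it was at 27.6 CPM in WT 1, 37.7 in WT 4, 36.7 in WT 5, 19.6 in WT 6, 19.6 in WT 7, 16.9 in WT 11 and 27.4 in WT 15. In those labelled cKO it was at 8.22 CPM in cKO 8, 13.2 in cKO 9, 28.2 in cKO 12, 26.4 in cKO 13 and 14.7 in cKO 14. The highest values of each group, WT 4, WT 5, cKO 12 and cKO 13, were those of the libraries with low Oxt. The group means ± SD were 26.5 ± 8.35 CPM over the 7 WT mice and 18.1 ± 8.71 CPM over the 5 cKO mice. The difference was not past the threshold, with a log2 difference by limma of -0.59 (adjusted p-value 0.165, SE 0.28) and an exact permutation p-value of 0.115.

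Within each Oxt class, a division chosen after seeing the data, the Bdnf values of the groups did not overlap. Of all tested genes 5.6% were lower in cKO without overlap in both classes, and Bdnf was the 1 member among them. With low Oxt they were 36.7 to 37.7 CPM in the 2 libraries labelled WT and 26.4 to 28.2 CPM in the 2 labelled cKO. With Oxt of at least 5 CPM they were 16.9 to 27.6 CPM in the 5 labelled WT and 8.22 to 14.7 CPM in the 3 labelled cKO. The covariate for the Oxt class gave a log2 difference of -0.70 by limma (adjusted p-value 0.00689, SE 0.15), in a fit that called 19.4% of all tested genes. Without the 4 low libraries it was -0.84 (SE 0.20, limma adjusted p-value 0.0288). Over 13 alternatives the adjusted p-value ran up to 0.271, and without cKO 8 the log2 fold change was -0.36. The neuropeptide gene Adcyap1, whose pattern was near that of Bdnf, differed likewise between the Oxt classes. With Oxt of at least 5 CPM it was at 32.4 to 97.2 CPM in WT and 26.8 to 38.1 CPM in cKO. With low Oxt it was at 111 to 114 CPM in WT and 83.5 to 92.7 CPM in cKO. The myelin gene Mbp was at 3689 to 4334 CPM in the 4 libraries with low Oxt and at 1734 to 3025 CPM in the other 8. The part of tissue make-up in the Bdnf difference was not tested further. In GENCODE M21, 896 of the 6217 merged exon bases of Bdnf are shared with the antisense gene Gm45346, so reads in those bases cannot be told apart without strand.

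**Figure D4:**
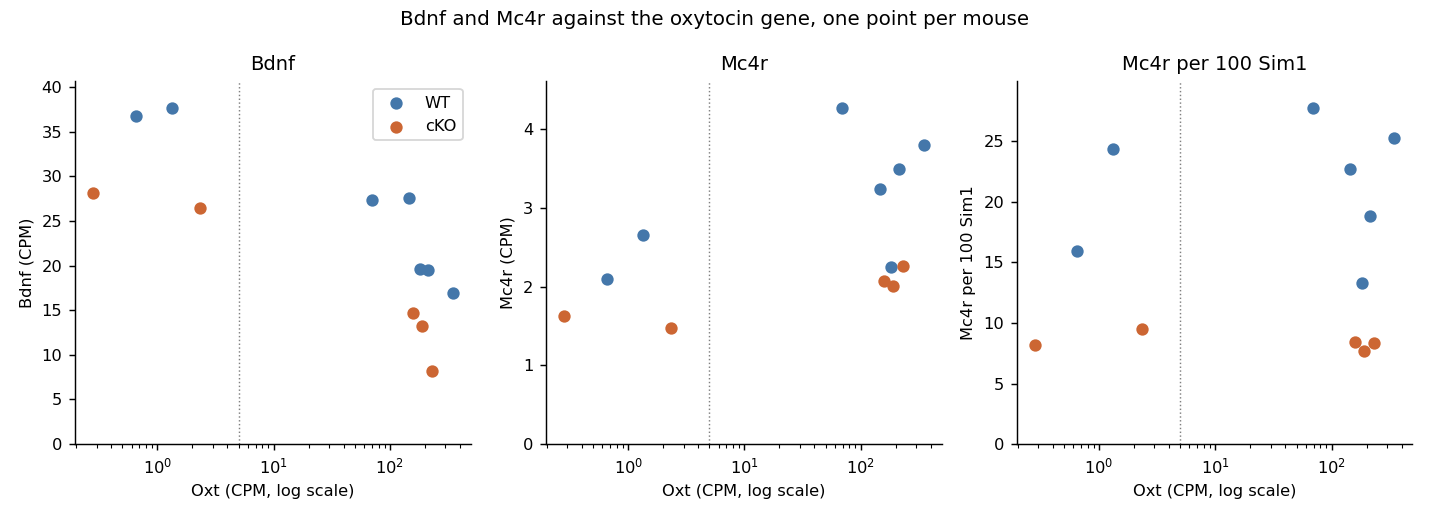
Bdnf in CPM, Mc4r in CPM and Mc4r for each 100 CPM of Sim1, each against Oxt in CPM on a log axis, with each point a mouse (WT blue, cKO orange). The dotted line at 5 CPM divides the 4 libraries with low Oxt from the other 8, and the cKO points of Bdnf lie below the WT points on either side of it.

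Ntrk2, the receptor of Bdnf, was the most abundant member and one of the least variable. It is made by neurons as the full kinase and by astrocytes as a truncated form, and these were counted together. In the libraries labelled WT it was at 878 to 1107 CPM with a median of 977 CPM, and in those labelled cKO it was at 936 CPM in cKO 8, 979 in cKO 9, 958 in cKO 12, 816 in cKO 13 and 1084 in cKO 14. The groups covered nearly the same range. The log2 difference by limma was -0.03 (adjusted p-value 0.776, SE 0.07, 95% interval -0.18 to 0.11).

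Levels were compared between members only per length, as CPM per kilobase of merged GENCODE M21 exons in the libraries labelled WT. Ntrk2 was highest at 50.6 ± 3.65 (SD, n = 7), followed by Cartpt at 41.4 ± 17.5 and Pcsk2 at 38.4 ± 4.23. Mrap2 was at 14.8 ± 2.51, Pcsk1 at 8.34 or more in every mouse, Pomc at 5.91 ± 5.92 and Bdnf at 4.26 ± 1.34. The place of Pomc rested on WT 4 and WT 7, at 10.8 and 17.4, and the other WT mice were at 2.29 to 3.33. In WT 1, WT 5, WT 11 and WT 15 Pomc was below Bdnf. The receptors were near the bottom, with Mc3r at 1.68 ± 0.483 and Mc4r at 1.11 ± 0.290, and Agrp was lowest at 0.863 ± 0.249. The ranges of neighbours in this order overlapped except between Pcsk2 and Mrap2, between Mrap2 and Pcsk1, and between Bdnf and Mc3r.

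Genes around the pathway were examined through lists. Of 10 other melanocortin genes 4 were tested: Atrn and Atrnl1, which encode attractins, Mgrn1, which encodes a ubiquitin ligase, and Sdc3, which encodes a syndecan that presents the Agrp product. By limma and by edgeR 0 of the 4 were past an adjusted or an unadjusted p-value of 0.05, and by DESeq2 0 were past the adjusted and 1 past the unadjusted one, with log2 fold changes from -0.10 to 0.07. The receptor genes Mc1r, Mc2r and Mc5r were at most at 1.21 CPM in any library, and Mc2r was at 0 in all. Of 12 genes of prohormone processing 2 were past the threshold, a share of 16.7% that was near the 14.1% of all tested genes. Pcsk6, a further convertase, fell from 29.4 ± 2.25 to 24.1 ± 0.958 CPM (mean ± SD over 7 and 5 mice), a log2 difference by limma of -0.27 (adjusted p-value 0.00936, SE 0.06). Qpct, which cyclises the first residue of peptides, rose from 32.2 ± 4.08 to 39.3 ± 3.15 CPM (mean ± SD over 7 and 5 mice), a log2 difference by limma of 0.28 (adjusted p-value 0.0348, SE 0.08). DESeq2 called 3 of the 12, against 17.9% of all genes. The limma count was 1 without WT 1, WT 4, WT 7, WT 11, cKO 8 or cKO 13, in fits that called 7.55% to 11.5% of all tested genes. The carboxypeptidase gene Cpe, the amidating enzyme gene Pam and the convertase chaperone gene Scg5 had log2 fold changes of 0.08, 0.20 and 0.16 and were not past the threshold. The median of the list was 0.06.

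Of 19 genes of signalling from melanocortin receptors 12 had positive and 7 negative log2 differences. By limma 5 were past the threshold (26.3%, against 14.1% of all tested genes), and all 5 were higher in the libraries labelled cKO, where 6.54% of all tested genes were past it in that direction. They were the regulatory subunits of protein kinase A Prkar1a (log2 fold change 0.17, SE 0.04, limma adjusted p-value 0.0140) and Prkar1b (0.17, SE 0.04, limma adjusted p-value 0.0140), the catalytic subunit Prkacb (0.20, SE 0.05, limma adjusted p-value 0.0218) and the G protein subunit Gnaq (0.12, SE 0.03, limma adjusted p-value 0.0241), with the cyclic AMP response factor Creb1 as the fifth. Prkar1a was at 959 to 1047 CPM in WT and at 1071 to 1164 CPM in cKO, and Prkar1b at 740 to 825 CPM and at 848 to 918 CPM. With Gnaq they were the 3 of 19 whose groups did not overlap, against 6.73% of all tested genes. The count was 3 without WT 1, cKO 8 or cKO 14, where 7.55%, 11% and 9.46% of all tested genes were past the threshold. Gnas, which encodes the stimulatory G protein of the receptors, had a log2 fold change of 0.01. The log2 difference farthest from 0 in the list was that of the adenylyl cyclase gene Adcy1, at -0.39 (195.5 and 149 CPM, limma adjusted p-value 0.0789), and those of Adcy8 and the Creb1 coactivator gene Crtc1 were -0.14 and -0.13. The median of the list was 0.09.

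Of 18 genes of the neurotrophin system 17 were tested and 3 were past the limma threshold, a share of 17.6% that was near the 14.1% of all tested genes. Sorcs2, a sorting receptor that binds the precursor of the Bdnf product, fell from 118 ± 4.93 to 93.2 ± 6.62 CPM (mean ± SD over 7 and 5 mice), with a log2 difference by limma of -0.34 (adjusted p-value 0.00228, SE 0.05). Its range was 111 to 123 CPM in WT and 85.6 to 101 CPM in cKO, without overlap. Sh2b1, an adaptor of neurotrophin and leptin receptors, fell by 0.14 on the log2 scale (SE 0.04, limma adjusted p-value 0.0296). Grb2, a common adaptor, rose by 0.11 (SE 0.03, limma adjusted p-value 0.0456). DESeq2 called 5 of the 17 (29.4%, against 17.9% of all genes), and the limma count was 1 without WT 1, WT 4, WT 11 or cKO 14, in fits that called 7.55% to 11.2% of all tested genes. Of 8 genes induced by neuronal activity, as Bdnf is, all had negative log2 fold changes, from -0.43 to -0.06 with a median of -0.36. Over all 15359 tested genes 7292 were negative. The summed level of the 8 overlapped between the groups, at 114 to 276 CPM in WT and 133 to 222 CPM in cKO. Of these genes 0 were past the limma threshold and 3 had an unadjusted p-value under 0.05, as had 31.1% of all tested genes. The largest count in a fit without a single mouse was 2, without WT 6 (11.2% of all tested genes), and it was 1 without WT 7 (11.5%) or WT 15 (13.1%). By edgeR it was 1 (13.7% of all tested genes) and by DESeq2 1 (17.9%).

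**Figure D5:**
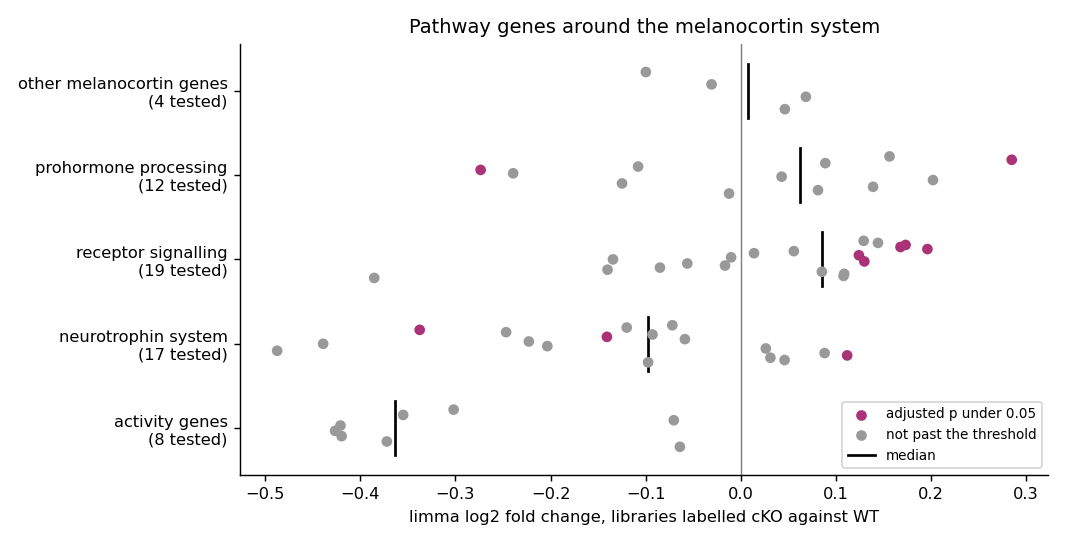
limma log2 fold change between the libraries labelled cKO and WT for the tested genes of 5 lists, with each point a gene, coloured where its adjusted p-value is under 0.05, and with the list median as a black bar. The 5 coloured receptor signalling genes lie above 0, and the activity genes lie below 0 with 0 coloured.

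The genes whose pattern over the 12 libraries was nearest to a member were found by the root mean squared difference of standardised log2(CPM + 1) values among 15358 other genes. For Mc4r they were Mmaa (0.310), A230006K03Rik (0.329) and Pcsk4 (0.338), and the nearest member, Mc3r, ranked 151 (0.539). For Bdnf they were Gm34776 (0.283), Adcyap1 (0.290) and Ndnf (0.292). For Pomc the nearest member, Ntrk2, ranked 4657 (1.22).

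The authors' deposited table gives the same direction for all 10 members. Of the 10 members, Mc4r was the 1 to which it gives a false discovery rate under 0.05 (0.0197, log2 fold change -0.72). Over its 32494 genes the share was 4.94%, but these include genes below the mean of 1 CPM, which 9 of the 10 members reached. Among the 15359 genes that reached it, limma called 14.1%. The authors' deposited table lists Pomc with a log2 fold change of 2.25 and a false discovery rate of 0.0650, and Mc3r with -0.56 and 0.119.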

How the data were processed

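Libraries of mRNA isolated from the hypothalamus of 12 mice were sequenced, per the labels' protocols. The authors deposited CPM values; bcl2fastq, FastQC (0.11.9), STAR (2.7.9a), SAMtools, Subread and featureCounts are named per the submitters' processing notes. Genome build, annotation and strand setting are not given in the sources used here. The authors' deposited test table holds log2 fold changes and p-values. In every library 100% of CPM values were whole multiples of a single step (tolerance 0.001), which gave the reads; 0 columns were unused. A floor of 3 reads was 0.0436 to 0.178 CPM and covers counting error only.

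The main test was limma (3.58.1, R 4.3.3; lmFit, eBayes with trend) on log2(CPM + 1) for genes averaging 1 CPM or more, with Benjamini-Hochberg adjustment over all 15359. For single members the mean CPM was tested by exact two-sided permutation (over all divisions of the mice into 7 and 5, smallest p-value 0.00126). Each p-value sets the difference between the groups against the variation between these mice, whatever the source of that variation. Checked on simulated counts, limma recovered 185 of 200 genes changed by 1 log2 unit among 15291 (92.5%), with 10 false calls. edgeR (4.0.16) and DESeq2 (1.42.0) on recovered reads were alternatives, with other scalings, filters, weights, a thalamic covariate and each mouse left out. The Oxt settings were chosen after seeing the data. Members and lists were chosen with earlier results of these data known. Named genes were the members, Smc3, listed genes past the threshold and the 3 nearest patterns of Mc4r, Pomc and Bdnf, of which those of Pomc are not reported here; other genes were named after their values were seen.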

Additional observations from a re-analysis of the deposited data

Results flagged for a closer look

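Of 20 groups of values, the 10 members in each label group, 1 held a library far from the rest, where chance gives about 1. Pomc was at 153 CPM in cKO 14, and the gap to the next cKO library, at 13.01 CPM, took up 0.936 of the range of the group. That library also had the highest Gh (10.2 CPM) and Prl (1.72 CPM) of the 12, and the part of pituitary RNA was not tested.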

How the results depend on the processing

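No paired analysis was possible because the groups share none of their mouse numbers. Mc4r kept its direction in every alternative that gave it a value, and it was not past the limma threshold over all genes above 0 (-0.49, adjusted p-value 0.0727), after quantile normalization (-0.41, 0.0531), with the thalamic score (-0.57, 0.0614) or without the low Oxt libraries (-0.48, 0.0602). Mc3r gained it with arrayWeights (-0.50), by DESeq2 (-0.56) and with the Oxt class (-0.37). Pcsk2 gained it with arrayWeights (-0.18) and by DESeq2 (-0.23), and Bdnf with arrayWeights (-0.81), the Oxt class (-0.70) and without the low Oxt libraries (-0.84). With the thalamic score Mrap2 became -0.044 and Pcsk1 -0.018. For these shifts the cause was not tested.

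Members past the threshold numbered 0 over all genes above 0, 0 after quantile normalization, 0 with the thalamic score, 0 at a minimum of 5 CPM (which leaves out Mc4r and Mc3r), 3 by DESeq2, 3 with the Oxt class and 4 with arrayWeights. Of all tested genes 4.86% were past it over all genes above 0, 13.3% after quantile normalization, 16.3% at a minimum of 5 CPM, 17.9% by DESeq2, 19.4% with the Oxt class, 33.4% with arrayWeights, 6.44% with the thalamic score and 10.3% without the low Oxt libraries. DESeq2 gave no adjusted p-value for Pomc. Without the low Oxt libraries the differences in CPM were -1.30 for Mc4r, -1.43 for Mc3r and -49.4 for Pcsk2, with exact permutation p-values of 0.0714, 0.125 and 0.0893. In that setting prohormone genes past the threshold numbered 1 and neurotrophin genes 1. Activity genes past it numbered 1 at a minimum of 5 CPM and 1 by edgeR. All genes past the threshold numbered 2172, against 5126 with arrayWeights, 989 with the thalamic score and 1158 without WT 1.

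With each mouse left out in turn, Mc4r ran from -0.56 to -0.43, Mrap2 from -0.035 to 0.12 and Ntrk2 from -0.081 to 0.021 on the log2 scale, and members past the threshold from 0 to 1. Of all tested genes 7.55% (without WT 1) to 15% (without WT 5) were past it in these fits. The differences in CPM ran from -1.61 to -1.02 for Mc3r, -50.3 to -33.0 for Pcsk2, -1.13 to 2.85 for Mrap2 and -53.3 to 13.8 for Ntrk2. In the same fits, listed genes past the threshold ran from 1 to 2 for prohormone processing, 3 to 6 for receptor signalling, 1 to 3 for neurotrophins and 0 to 2 for activity genes. The count of 6 came without WT 15, where 13.1% of all tested genes were past the threshold. Agrp and Mc4r, with as few as 11 and 31 reads, are limited most by depth.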

Other observations

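There were 4.69 to 7.80 reads of Pcsk2 for each read of Pcsk1 in the libraries labelled WT and 3.36 to 4.84 in those labelled cKO, ranges that overlapped, and the ratio was not tested. Esr1, the oestrogen receptor of ventromedial and arcuate neurons, rose from 9.07 ± 3.29 to 18.9 ± 6.63 CPM (mean ± SD over 7 and 5 mice), with a log2 difference by limma of 0.99 (adjusted p-value 0.0143, SE 0.23). It was the 1 of 4 ventromedial genes past the threshold, and Fezf1, Nr5a1 and Adcyap1 had log2 differences of 0.45, -0.43 and -0.60. Stmn2, a neuronal marker, rose by 0.20 on the log2 scale (SE 0.05, limma adjusted p-value 0.0224), while the other 4 genes of its list were not past the threshold.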
